A study of Mus musculus with 6 samples.

Results

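Zscan4c, Tcstv1, Tcstv3, Arg2 and Zfp352 are 5 mouse genes known for their transcription in the embryo at the 2-cell stage. Here their RNA was followed in germ cells made from embryonic stem (ES) cells. The genes were taken by name, with each probe whose accession or older symbol belongs to one of them, which gave 10 of the 41174 probes of the array and 5 of the 20220 genes tested. They were chosen by their levels over vectors and days on these arrays, so their day and knockdown differences are given as a description, with no p-value. Zscan4c had the largest increase from day 9 to day 12 of the 20220 genes, and the fitted day difference of the 5 genes ran from 4.58-fold for Zfp352 to 12.3-fold for Zscan4c.

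Male Oct4-GFP transgenic ES cells of a mixed C57BL/6 and 129SV background carried a tdTomato-marked vector, either a control or 1 of 2 short hairpin RNAs against Dazl, an RNA-binding protein of germ cells. After removal of feeder cells they were differentiated for 9 or 12 days, and cells positive for both GFP and tdTomato were sorted. The labels call them primordial germ cells; all groups share the Oct4-GFP transgene, the tdTomato marker and the sort, and these are cells made in culture, not taken from an embryo. There were 6 samples with 1 array each: control, hairpin 1 and hairpin 2 at day 9, and the same at day 12, so each day has 1 control and 2 knockdown arrays. Hairpins are numbered here as in the sample titles; the deposited files are named with other hairpin numbers. The labels do not name separate cultures, so the p-values below measure only the spread between these samples, which may be technical.

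In the mouse, the main wave of embryonic transcription starts at the 2-cell stage, when a set of genes is switched on briefly and then silenced. A small and changing fraction of cultured ES cells re-enters a state with the same transcripts, called the 2-cell-like state, in which the transcription factor Dux activates Zscan4 and many neighbours of endogenous retroviral repeats. Zscan4 proteins hold a SCAN domain and zinc fingers and are known for lengthening telomeres in ES cells. Tcstv1 and Tcstv3 belong to a small family of 2-cell stage transcripts that has also been tied to telomere length. Zfp352 encodes a zinc finger protein, and Arg2 a mitochondrial arginase, which splits arginine into ornithine and urea and is used in many adult tissues too.

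Dazl was lower in the knockdown arrays, with a signal of 1570 in the control and 79.3 and 154 in hairpins 1 and 2 at day 9, and 4190 against 145 and 178 at day 12. The 75th percentile of the signal lay between 629 and 746 on the 6 arrays, and 70.3% to 73.3% of probes were well above background, the scanner software's detection call. Of the germ cell markers, 12 of 12 with a probe were well above background on each array, as were 12 of 12 ES cell markers. The 3 arrays of day 9 were on 1 slide and in 1 scan and those of day 12 on another, so the day and the slide cannot be told apart. Control, hairpin 1 and hairpin 2 lay at positions 2, 3 and 4 of both slides, so the vector and the position cannot be told apart either. Because RNA came from pools of sorted cells, fewer cells in a state and less RNA per cell cannot be told apart.

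Promoter sequences from RefSeq (GRCm38.p6) were at hand for 2 of the 5 genes, and are shown because Zscan4c is 1 of several near copies. The Zscan4 genes lie in a cluster on chromosome 7, and the stretch before the start of Zscan4c is printed with that of Zscan4f, a copy for which the array has no probe of that name. Each is 250 bases, 5′ to 3′ on the gene's strand and ending at the base before the annotated start: Zscan4c at chr7:11005495-11005744 (+), Zscan4f at chr7:11397665-11397914 (+) and Zfp352 at chr4:90218570-90218819 (+). Capitals mark, in the Zscan4 genes, the motifs GATTNNATC, the core of a pattern of the kind bound by double-homeobox factors such as Dux, and TATAAA, the TATA box; in Zfp352 they mark a repeated stretch of 10 letters.
Zscan4c: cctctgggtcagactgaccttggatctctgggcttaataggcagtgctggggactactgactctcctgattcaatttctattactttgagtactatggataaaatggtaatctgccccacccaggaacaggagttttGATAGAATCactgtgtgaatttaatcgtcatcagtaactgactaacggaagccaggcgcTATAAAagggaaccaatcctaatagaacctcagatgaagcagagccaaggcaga
Zscan4f: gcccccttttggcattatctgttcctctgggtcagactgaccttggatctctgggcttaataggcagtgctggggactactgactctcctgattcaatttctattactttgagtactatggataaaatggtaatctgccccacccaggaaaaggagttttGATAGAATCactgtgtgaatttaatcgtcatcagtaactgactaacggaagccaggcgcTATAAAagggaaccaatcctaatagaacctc
Zfp352: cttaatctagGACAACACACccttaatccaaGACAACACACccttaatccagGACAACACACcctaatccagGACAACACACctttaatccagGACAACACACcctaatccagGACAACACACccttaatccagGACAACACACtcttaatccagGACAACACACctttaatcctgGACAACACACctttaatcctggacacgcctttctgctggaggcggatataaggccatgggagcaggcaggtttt
Both strands were searched, and the first of these (GATAGAATC as printed) matches on the minus strand. Zscan4c and Zscan4f were identical at 226 of 227 aligned positions (99.6%); the same stretch begins 23 bases further along in the Zscan4f window. Zscan4d and Zscan4b shared 97.5% and 94.7% of aligned positions with Zscan4c. All 4 Zscan4 windows held GATTNNATC and TATAAA once each; of 32851 promoter windows of this length, 1.39% held the first and 12.4% the second. The Zfp352 window held neither, and instead held GACAACACAC 9 times, the most frequent stretch of 10 letters in it and so chosen from the sequence itself; 0.0426% of windows held it at all, and this window alone held 3 or more copies. TGCACAC, a motif reported for Zscan4 proteins, was in none of the 5 windows and in 3.67% of all windows. No match overlapped one of another motif, and a match of letters is not a measured binding site.

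The copies matter for what a probe reads. The 2 probes read here as Zscan4c carry an accession of that gene (NM_001013765) under the older array name Gm397, and no probe bore the name of Zscan4a, Zscan4b, Zscan4d, Zscan4e or Zscan4f. Whether these probes also bind RNA of the other copies cannot be told from the files, which hold no probe sequences, and the same holds for Tcstv1 (NM_018756) and Tcstv3 (NM_153523), both on chromosome 13. Arg2 (NM_009705, chromosome 12) and Zfp352 (NM_153102, chromosome 4) complete the set.

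Zscan4c gave background-corrected signals of 89.9 in the control, 66.5 in hairpin 1 and 232 in hairpin 2 at day 9, and of 1590, 1020 and 1590 at day 12. All 3 day 12 arrays were above all 3 day 9 arrays. On the log2 scale, with each array's 75th percentile set to 0, the mean was -2.60 ± 0.83 (SD, n = 3) at day 9 and 1.03 ± 0.40 (SD, n = 3) at day 12. With the knockdown as a term, the difference was 3.62 (SE 0.45), or 12.3-fold, and 0 of the 20220 genes had a larger one. A second probe ran from 12.2 to 70.7 at day 9 and from 242 to 390 at day 12, again with hairpin 1 lowest on each day.

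Tcstv1 was read by 3 probes. The brightest gave 346, 105 and 583 in control, hairpin 1 and hairpin 2 at day 9, then 2610, 1580 and 2620 at day 12. Day 12 was higher in each of the 3 vectors and the days did not overlap. Its mean log2 level went from -1.29 ± 1.20 to 1.72 ± 0.45 (SD, n = 3 each), and the fitted difference was 3.0 (SE 0.59), 8.01-fold, with 6 genes showing a larger one. The other probes gave the same order on day 9, hairpin 1 lowest and hairpin 2 highest, at 98.7 to 652 and at 11.1 to 65.2.

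Tcstv3 followed Tcstv1 closely. Its brightest probe read 253, 103 and 533 at day 9 and 1890, 1120 and 1900 at day 12, in the order control, hairpin 1, hairpin 2. The day means were -1.49 ± 1.10 and 1.24 ± 0.47 (SD, n = 3 each) and the difference was 2.73 (SE 0.57), 6.63-fold. Its second probe spanned 12.4 to 45.3 at day 9 and 116 to 263 at day 12, so the days did not overlap there either.

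Zfp352 read 46.6, 17.4 and 63.9 at day 9 and 231, 109 and 196 at day 12 on its brighter probe. Day 12 was again above day 9 throughout, and hairpin 1 was the lowest vector on each day. The means were -4.18 ± 0.92 and -1.98 ± 0.58 (SD, n = 3 each), a difference of 2.20 (SE 0.47) or 4.58-fold. On its second probe, at 10.4, 2.06 and 23.5 and then 55.0, 22.6 and 43.5, hairpin 1 at day 9 was not well above background, and the increase in hairpin 1 there was at least 3.89-fold.

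Arg2 had 1 probe, with signals of 9.39, 3.69 and 17.6 at day 9 and 57.7, 39.8 and 62.1 at day 12. Hairpin 1 at day 9 was not well above background, and the other 5 arrays were. Its measured means were -6.31 ± 1.06 and -3.69 ± 0.38 (SD, n = 3 each), and the fitted difference of 2.63 (SE 0.54), 6.18-fold, used the measured value of that array. Within vectors Arg2 was 5.52-fold higher at day 12 in the control and 4.13-fold in hairpin 2. In hairpin 1 the increase was at least 6.84-fold, set against the lowest signal well above background on that array.

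**Figure D1:**
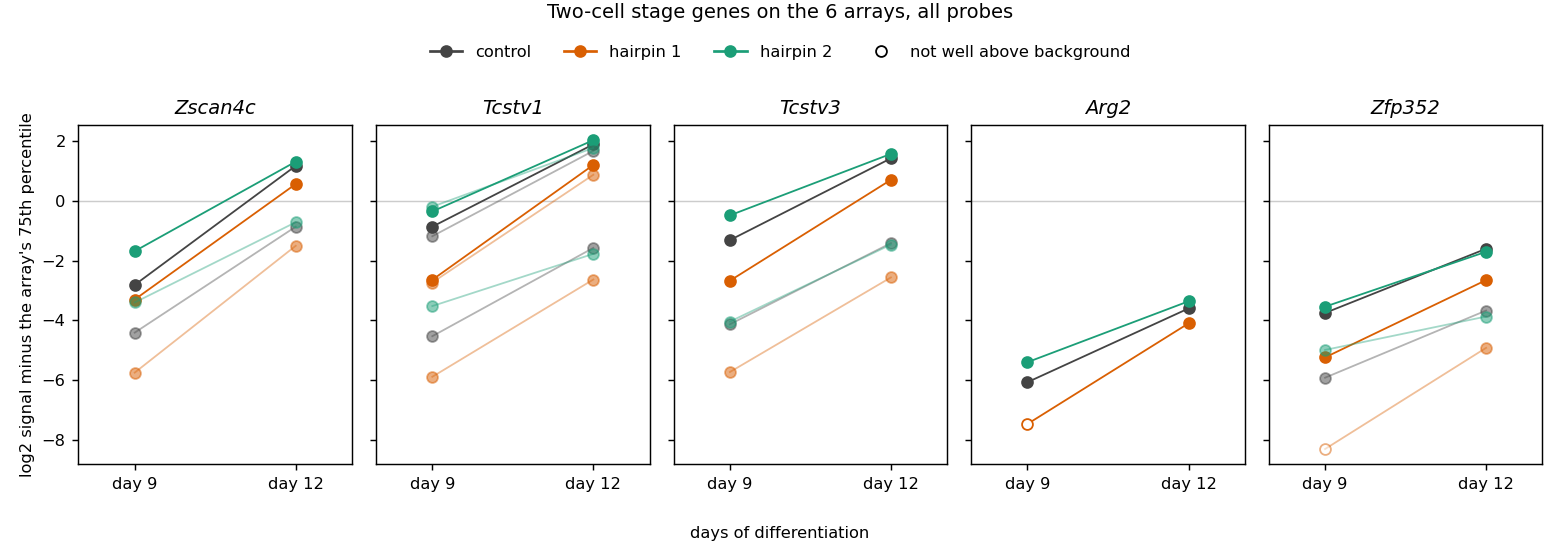
Level of each gene (log2 signal minus the array's 75th percentile, y axis) at days 9 and 12 of differentiation (x axis), with 1 point per array, lines joining the arrays of 1 vector, full colour for the brightest probe of a gene and pale colour for its other probes. Each of the 10 probes was higher at day 12 in each vector, and hairpin 1 (orange) was the lowest vector on each day; open circles mark values not well above background.

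Across the 10 probes, the increase from day 9 to day 12 ran from 2.16 to 3.99 on the log2 scale in the control (median 2.76). It ran from 2.59 to 4.25 in hairpin 1 over the 8 probes with a measured value on both arrays (median 3.50), and from 1.12 to 3.01 in hairpin 2 (median 2.05). All 5 genes passed a rule of at least 2-fold higher at day 12 in all 3 vectors, which 1.03% of all genes passed; the choice of the genes used this contrast, and nothing is read from the share. Tested with limma and Benjamini-Hochberg adjustment over all genes, 0.148% of genes differed between the days in either direction. With the vector as a replicate block, the log2 differences of the 5 genes stayed the same and their SEs fell to between 0.18 and 0.29. The size of these increases depended on the background correction for the dim probes: with the normexp method, which adds an offset of 50 to each signal, the Arg2 difference was 0.45 and that of Zfp352 0.97.

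Between the vectors, hairpin 1 was the lowest on each day for all 5 genes. On the brightest probes, the order of hairpin 2 and the control at day 12 was not the same for Zfp352 as for the others. Hairpin 1 was below the control of its day for each gene: Zscan4c stood at 70.9% of the control at day 9 and 65.6% at day 12, Tcstv1 at 29.1% and 61.9%, Tcstv3 at 39.0% and 60.6%, and Zfp352 at 35.8% and 48.2%. Arg2 in hairpin 1 was at least 1.76-fold lower than the control at day 9, and at 70.5% of it at day 12. Hairpin 2 was above the control at day 9 for each gene, from 116% of it for Zfp352 to 218% for Zscan4c. At day 12 hairpin 2 and the control were nearly level, from 93.4% for Zfp352 to 118% for Arg2. Over the probes, hairpin 1 was lower than control in 8 of 8 at day 9 and in 10 of 10 at day 12, and hairpin 2 was higher in 10 of 10 at day 9 and in 6 of 10 at day 12.

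**Figure D2:**
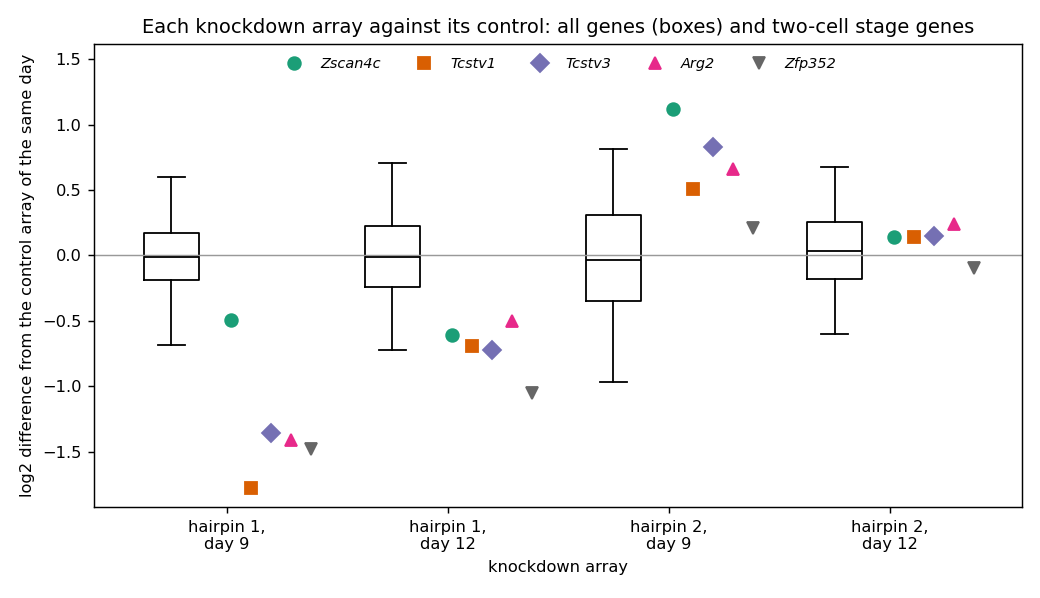
Log2 difference of each knockdown array from the control array of the same day (y axis), for the 2 hairpins and 2 days (x axis); boxes give the quartiles and whiskers the 5th to 95th percentile of all 20220 genes, and symbols the 5 genes, with Arg2 in hairpin 1 at day 9 at its measured value although not well above background. The 5 genes lie below 0 in both hairpin 1 arrays, above 0 in hairpin 2 at day 9 and between -0.10 and 0.24 in hairpin 2 at day 12.

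Taking both hairpins together, 1 knockdown difference was above 0 and 4 were below. They were 0.04 (SE 0.48) for Zscan4c, -0.46 (SE 0.63) for Tcstv1, -0.28 (SE 0.60) for Tcstv3, -0.25 (SE 0.57) for Arg2 and -0.61 (SE 0.50) for Zfp352 on the log2 scale. With the vector as a block the SEs were 0.24, 0.30, 0.27, 0.28 and 0.19. That fit leaves the spread between the hairpins out of the SE, so it does not weigh the knockdown against that spread. By limma, 0% of all genes passed the adjusted threshold in this comparison, 0 of 20220, against 9.95% at an unadjusted p under 0.05, and 20 passed with the vector as a block. These signs depended on single arrays: with 1 array left out the Zscan4c difference ranged from -0.35 to 0.35, and without hairpin 1 at day 9 those of Tcstv1, Tcstv3 and Arg2 were 0.06, 0.19 and 0.21. The knockdown difference was also fitted for each day with limma. It was higher at day 12 than at day 9 for Tcstv1, Arg2 and Zfp352, and lower for Zscan4c and Tcstv3. Each day has 1 control array, and the genes were chosen by these same levels. The fit therefore cannot decide whether their knockdown difference changed between the days, and nothing is read from it.

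The hairpins themselves differed by more. Hairpin 2 exceeded hairpin 1 by 1.62 to 2.54 on the log2 scale at day 9 over 8 measured probes (median 2.24), and by 0.75 to 1.10 at day 12 over all 10 (median 0.86). Fitted over both days, hairpin 2 minus hairpin 1 was 1.18 (SE 0.27) for Zscan4c, 1.56 (SE 0.35) for Tcstv1, 1.53 (SE 0.32) for Tcstv3, 1.41 (SE 0.32) for Arg2 and 1.32 (SE 0.22) for Zfp352. These are 2.27-fold to 2.95-fold. After adjustment over all genes by limma, 0 of 5 passed, where 0.0692% of all genes did. In the same fit 5 had an unadjusted p under 0.05, where 11.7% of all genes did. The levels that chose the genes include those by vector, so these counts restate that choice and nothing is read from them. The adjusted count depended on single arrays: without either control array 5 of 5 passed the adjusted threshold, where 819 of all genes did, and without hairpin 1 at day 12 4 of 5 did, where 354 of all genes did. Leaving out the control of day 9 or that of day 12 gives the same fit between the hairpins. The control that is left is then fitted exactly and adds nothing to the estimate of the spread. The same holds for the gene lists below. Residual Dazl RNA was also higher in hairpin 2, by 0.59 (SE 0.23, adjusted p = 0.420 by limma), and the part of that difference in the result was not tested.

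The 5 genes moved together over the arrays. Pearson's r between pairs of genes, over the same 6 arrays, was 0.950 to 0.999 in 10 pairs, lowest for Zscan4c with Zfp352 and highest for Arg2 with Tcstv1 and with Tcstv3. As the arrays share the day step, this is a description of 6 points. In centred values, the mean of the 5 genes was lowest in hairpin 1 at day 9 (-2.51), followed by the control (-1.21) and hairpin 2 (-0.54) of that day, then by hairpin 1 at day 12 (0.90). Control and hairpin 2 at day 12, at 1.62 and 1.73, were closer to each other than any other neighbouring arrays in this order.

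The profile was then compared with the 1615 genes that were well above background on all arrays and varied by an SD of at least 0.5. The most similar were MGC107533 (r = 0.999), Gm428 (0.998), Gm11487 (0.998), LOC544881 (0.996), LOC671969 (0.994), Myh3 (0.994), LOC627520 (0.992), Krtap4-13 (0.989), LOC625240 (0.989) and Krt12 (0.989), over 6 arrays. Myh3 is the myosin heavy chain of embryonic muscle, Krt12 a keratin of the cornea and Krtap4-13 a keratin-associated protein of hair. Likeness of shape did not mean likeness of size: Gm428 and LOC544881 were each 3.06 higher at day 12 on the log2 scale, Krt12 was 0.86 higher. LOC544881 stood at -1.15, -2.97 and -0.82 at day 9 and at 1.46, 0.97 and 1.82 at day 12, in the order control, hairpin 1, hairpin 2.

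Other genes of the 2-cell state were followed in a list of 54, of which 20 had a probe of that name and 17 were well above background on at least 2 arrays. Zscan4 copies, Dux and most Tdpoz genes had no probe so named. The list was drawn up with earlier results of these arrays known. At day 12, 15 of the 17 were higher than at day 9 and 2 lower, with a median log2 difference of 1.09 against 0.00 for all genes. The size of that median depended on the processing: it was 0.10 with normexp, 1.71 with the authors' deposited table and 1.66 without hairpin 1 at day 12. Since 8 of them were not well above background on every array and could pass through the arrays where they were high, the same was counted over all 20 (18 higher, median 0.69) and over the 9 seen on all 6 arrays (7 higher, median 0.47). By limma 0 of 17 passed after adjustment, where 0.119% of all genes were called higher, and 9 were higher at an unadjusted p under 0.05, against 7.27% of all genes. With the vector as a replicate block, 5 of 17 passed, where 1.43% of all genes were called higher.

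The 5 called with the vector block were the ubiquitin peptidases Usp17la, Usp17lb and Usp17lc, with Gm5662 and Pramel37, a member of the large Prame-like family. Usp17la read 310, 93.2 and 357 at day 9 and 1850, 789 and 1530 at day 12, in the order control, hairpin 1, hairpin 2. It was lowest in hairpin 1 on each day, like the 5 genes, and was 2.59 higher on the log2 scale (SE 0.18, adjusted p = 0.0107 by limma with the block). Pramel37 read 221, 68.2 and 354 and then 1330, 401 and 920, a difference of 2.18 (SE 0.21, adjusted p = 0.0143 in the same fit). With normexp these differences were 2.15 and 1.74. Usp17lb was not well above background in hairpin 1 at day 9, and was 11.7-fold higher at day 12 in the control, 4.70-fold in hairpin 2 and at least 7.46-fold in hairpin 1. Usp17lc was above background at day 9 in hairpin 2 alone, where it was 2.99-fold higher at day 12, against at least 6.25-fold in the control and at least 3.54-fold in hairpin 1. The calls of Usp17lb and Usp17lc thus used values not well above background, and with normexp their differences were 0.51 and 0.12. Pramel7 was well above background only on the control and hairpin 2 arrays of day 12, where it was at least 3.57-fold and at least 3.02-fold higher than at day 9.

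Not all genes of the list had this pattern. Tdpoz1 read 12.9, 19.3 and 15.0 at day 9 and 17.8, 14.8 and 23.9 at day 12, with overlapping days. Calcoco2, an autophagy receptor, had a day difference of -0.19 (SE 0.27), Pramel13 one of -0.03 (SE 0.14) and Sp110 one of 0.22 (SE 0.17).

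Fitted over both days, 17 of 17 genes of the list were higher in hairpin 2 than in hairpin 1. The median log2 difference was 0.75 against 0.02 for all genes, and Pramel48 (0.02), Pramel13 (0.07) and Tdpoz1 (0.12) were near 0. At day 9 these genes were lower in hairpin 2, at -0.30, -0.13 and -0.55, and at day 12 higher, at 0.34, 0.27 and 0.80. Over all 20 genes with a probe 18 were higher and 2 lower, with a median of 0.62. Over the 9 seen on all 6 arrays, 9 were higher, with a median of 0.51. Over the alternatives the median ran from 0.41, without hairpin 1 at day 12, to 1.15, with the authors' deposited table. By limma 0 of 17 passed after adjustment, where 0.0692% of all genes did, and 10 were higher at an unadjusted p under 0.05, where 6.25% of all genes were. At least 2-fold higher in hairpin 2 on both days, in measured values, were 5 of 17 (Usp17la, Usp17lb, Obox3, Obox6 and Pramel37), where 0.702% of all genes were. Of these, Usp17la and Pramel37 were well above background in all 4 hairpin arrays, and Usp17lb in all but hairpin 1 at day 9. Obox6, an oocyte-specific homeobox gene, was well above background only in the 2 hairpin 2 arrays, at least 1.72-fold higher at day 9 and at least 1.53-fold at day 12. Obox3 was above background in neither hairpin at day 9, and at least 1.33-fold higher in hairpin 2 at day 12. Pramel37 differed by 1.75 (SE 0.26, adjusted p = 0.112 by limma), and was seen on all arrays. The adjusted calls varied with the arrays used: 8 of 17 passed without either control array, where 819 of all genes did, 5 without hairpin 1 at day 9 (183 of all genes), 6 without hairpin 1 at day 12 (354 of all genes), and 0 without either hairpin 2 array (0 of all genes).

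Knockdown against control gave 14 of the 17 lower and 3 higher, with a median of -0.32. With 1 array left out the median ran from -0.54, without hairpin 2 at day 9, to -0.07, without the control at day 12. The hairpins did not always agree: at day 9 Pramel37 read 221 in the control, 68.2 in hairpin 1 and 354 in hairpin 2. By limma 0 passed after adjustment and 1 was lower at an unadjusted p under 0.05, against 4.84% of all genes. That gene, Pramel13, was well above background on all arrays and differed by -0.58 (SE 0.15), and by -0.60 with normexp. Pramel37 differed by -0.85 (SE 0.66, adjusted p = 0.715 by limma) and Usp17la by -0.79 (SE 0.53, adjusted p = 0.674 by limma). Obox3 and Spz1 had fitted differences of -1.15 and -0.68 that used values not well above background, on 4 arrays and 1 array, and these were 0.23 and 0.08 with normexp. With normexp the median of the list was 0.04.

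**Figure D3:**
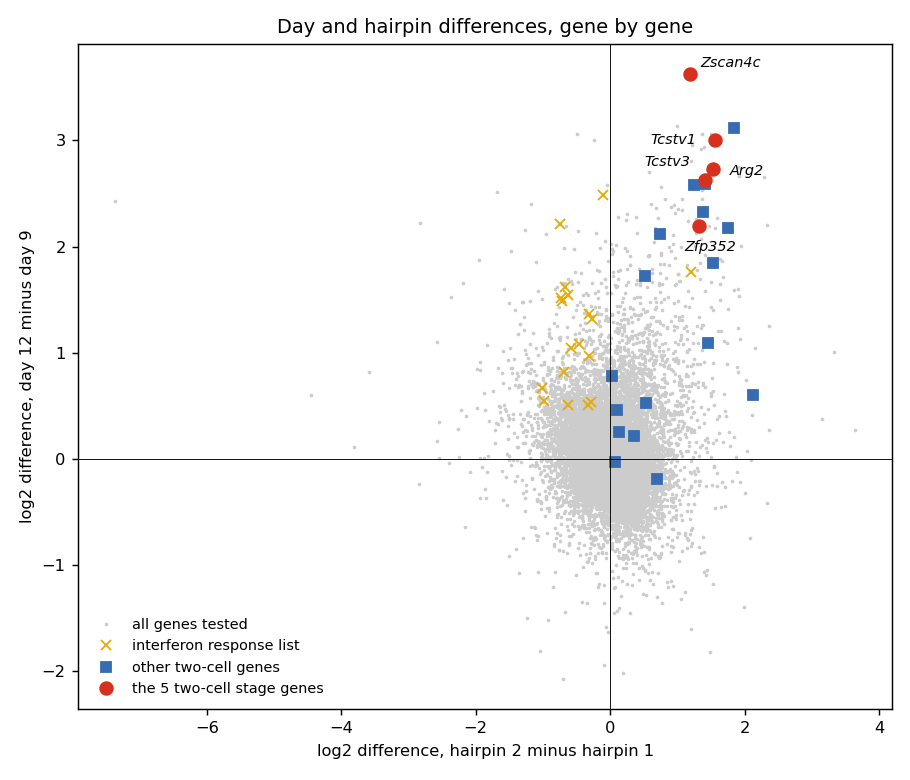
Log2 difference between the days (y axis) against that between the hairpins (x axis) for each of the 20220 genes tested (grey), with the 5 genes (red circles), the 17 other genes of the 2-cell state (blue squares) and 18 interferon response genes (yellow crosses). The 5 genes lie in the upper right, at 2.20 to 3.62 by day and 1.18 to 1.56 by hairpin, while 17 of 18 interferon genes lie left of 0.

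Genes known to set the 2-cell-like state had median differences near 0. The list holds both activators and repressors, so opposite shifts could cancel in a median, and Dux had no probe so named. Of 28 tested activators and repressors, among them Dppa2 and Dppa4, which activate Dux, and Trim28, Setdb1 and Kdm1a, which silence retroviral repeats, the median log2 difference was 0.03 between the days, -0.04 between the hairpins and -0.08 for the knockdown. By limma 0 of 28 passed in any of these comparisons, with 2, 0 and 2 at an unadjusted p under 0.05, where 12.0%, 11.7% and 9.95% of all genes were. The largest day differences were -0.71 for Lin28a (SE 0.32), 0.41 for Chaf1b (SE 0.16), 0.39 for Dppa2 (SE 0.14) and -0.38 for L3mbtl2 (SE 0.31). Rif1, a telomere-associated repressor of the state, had the largest knockdown difference, -1.05 (SE 0.40, adjusted p = 0.468 by limma). Next in size were Smchd1 at -0.56 (SE 0.20) and Tet2 at 0.50 (SE 0.28).

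The processes in which these genes take part were read in the same way. Among 16 genes of shelterin, telomerase and telomere maintenance, the medians were -0.04 by day, 0.13 by hairpin and -0.04 by knockdown, and by limma 0 passed, with 1 at an unadjusted p under 0.05 in each, against the 12.0%, 11.7% and 9.95% of all genes given above. Tert, the telomerase reverse transcriptase, was 0.62 higher in hairpin 2 (SE 0.24, adjusted p = 0.415 by limma), and Dkc1, dyskerin, was 0.66 lower at day 12, a difference of -0.66 (SE 0.14, adjusted p = 0.139 by limma). Of 20 tested genes of arginine, ornithine and polyamine metabolism other than Arg2, 11 were higher and 9 lower at day 12, with a median of 0.03, and by limma 0 passed and 4 had an unadjusted p under 0.05, where 12.0% of all genes did. Cps1, the first enzyme of the urea cycle, had the largest day difference of them, 0.77 (SE 0.26, adjusted p = 0.317 by limma). Arg1, the liver arginase, differed by -0.63 (SE 0.40) between the hairpins, where Arg2 differed by 1.41.

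Markers of other cells were set beside the 5 genes. The summed level of the 12 ES cell markers with a probe was 215 to 264 times the 75th percentile over the 6 arrays, with 219 to 264 at day 9 and 215 to 254 at day 12. Their median differences were -0.16 by day and -0.10 by hairpin, with 0 of 12 called by limma in either. At an unadjusted p under 0.05 there were 0 and 1, where 12.0% and 11.7% of all genes were. By knockdown 10 of 12 were higher, with a median of 0.23 and 0 called. Of these, 3 had an unadjusted p under 0.05, where 9.95% of all genes did. Nr0b1 had the largest knockdown difference of the list, 0.92 (SE 0.22). Pou5f1, the gene whose reporter was sorted on, was 0.70 higher in knockdown arrays (SE 0.15, adjusted p = 0.275 by limma). The 12 germ cell markers had medians of 0.27 by day, 0.01 by hairpin and -0.36 by knockdown. By knockdown 11 of 12 were lower, Dazl among them, and 5 had an unadjusted p under 0.05, where 9.95% of all genes did. By limma 0 were called for the knockdown, 1 with normexp, and 1 with the vector block, which leaves out the spread between hairpins. Their summed levels were 95.7 to 197 at day 9 and 168 to 261 at day 12.

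Over all genes, 12.0% differed by day, 11.7% by hairpin and 9.95% by knockdown at an unadjusted p under 0.05, and the lists below are read against these shares. Interferon response genes were higher at day 12 in 18 of 18, with a median of 1.20, 1 called by limma (Ifi27, 2.48, SE 0.24, adjusted p = 0.0400) and 13 at an unadjusted p under 0.05; with the vector as a block 3 were called. With 1 array left out 5 were called without hairpin 1 at day 9 and 0 in each of the other 5 fits, and 0 with normexp. Between the hairpins they lay the other way from the 5 genes, with 17 of 18 lower in hairpin 2 and a median of -0.61, 0 called by limma and 4 at an unadjusted p under 0.05. By knockdown 16 of 18 were lower, with a median of -0.34, 0 called and 1 at an unadjusted p under 0.05. The summed level of the list went from 43.8 to 71.8 at day 9 to 126 to 157 at day 12. Fibroblast markers, at summed levels of 5.53 to 8.19 at day 9 and 2.14 to 7.31 at day 12 and with 9 to 11 of 11 well above background, had a day median of -0.27 and were higher in hairpin 2 in 10 of 11, with a median of 0.77. By limma 0 of 11 were called in either, with 3 and 6 at an unadjusted p under 0.05, and 1 was called by day with the vector block. By knockdown 11 of 11 were higher, with a median of 0.81, 0 called and 6 at an unadjusted p under 0.05. Trophectoderm markers were at summed levels of 197 and 170 in the controls of days 9 and 12. The levels were 257 to 285 in hairpin 1 and 148 to 176 in hairpin 2. Their day median was -0.01, and 8 of 9 were lower in hairpin 2 than in hairpin 1, with a median of -0.74. By limma 1 was called (Cdx2, -2.26, SE 0.19, adjusted p = 0.0499), with 6 at an unadjusted p under 0.05. At days 9 and 12 Cdx2 read 62.7 and 76.7 in the control, 199 and 232 in hairpin 1, and 41.1 and 51.6 in hairpin 2. Endoderm markers were at summed levels of 1.59 to 1.80 in the controls and 2.20 to 3.54 in the knockdown arrays. Their medians were 0.22 by day and -0.24 by hairpin, and 9 of 10 were higher in knockdown arrays (median 0.75). By limma 0 were called, with 1 by day, 6 by hairpin and 4 by knockdown at an unadjusted p under 0.05. With the vector block, which leaves out the spread between hairpins, 2 were called for the knockdown. The hairpin counts depended on single arrays: without either control array 3 trophectoderm, 5 fibroblast, 4 endoderm and 2 interferon genes were called, without hairpin 1 at day 9 3, 1, 3 and 0, without hairpin 1 at day 12 2, 1, 3 and 4, and without either hairpin 2 array 0 of each. The part of these lists in the differences of the 5 genes was not tested.

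**Figure D4:**
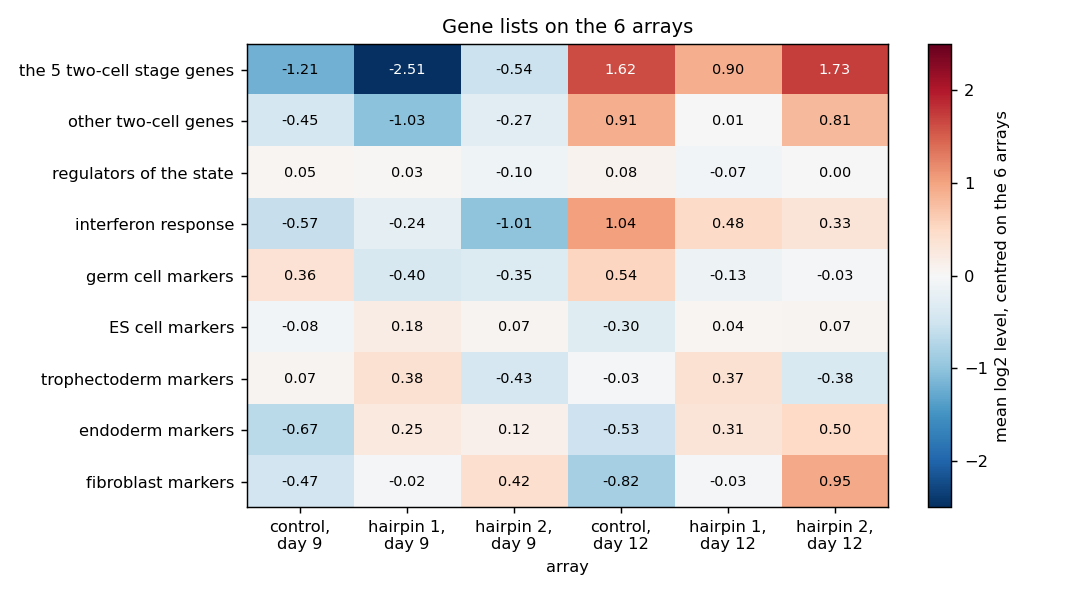
Mean log2 level of each gene list (rows) on each array (columns), centred on the mean of the 6 arrays, with red for higher and blue for lower. The 5 genes span -2.51 to 1.73 and the other 2-cell genes -1.03 to 0.91 in nearly the same order of arrays, the regulators of the state stay between -0.10 and 0.08, and the interferon list is higher at day 12 but is lowest in hairpin 2 at day 9 (-1.01).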

How the data were processed

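Total RNA of 6 samples was measured on 1-colour Agilent arrays, 1 array each. Per the file headers, the scanner files hold spot intensity from Feature Extraction 9.1.3.1, detrended, background-subtracted and not normalized between arrays. The authors' deposited table holds a ratio of the background-subtracted signal to a constant of its array, and its deposited quality score served only to match entries to spots. It was an alternative only.

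From the intensities, log2 values minus each array's 75th percentile were computed. A probe was kept if 2 or more arrays read it well above background (30190), and the brightest probe of a gene was used (20220 genes). Bounds were taken against the array's lowest signal well above background. Of the probes, 22944 were named through an accession, 9759 through a symbol or synonym and 8471 by the array's own name. Two-sided limma 3.58.1 (R 4.3.3) fits used Benjamini-Hochberg adjustment over all genes, with an adjusted p under 0.05 as the threshold: day and knockdown together, 4 groups for their interaction, and vector with day for the hairpins. The fits were tested on simulated data. The lone control of a day was assumed to vary like the knockdown pairs.

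In deviations from the day mean, the 3 same-vector pairs correlated across days at r = 0.38, 0.54 and 0.26, and different vectors at -0.34 to -0.02. The deviations of the 3 arrays of a day sum to 0, so the contrast between these values is partly built in. Each vector also kept its slide position, so a pairing by vector and by position cannot be told apart. The vector as a block was an alternative, which for the knockdown leaves the spread between hairpins out of the error. Others were quantile normalization, normexp, the deposited table, other probe filters, the mean of probes, a trended robust prior and each array left out.

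The genes and lists were chosen with earlier results of these data known. Named genes were the 5 with all probes, up to 4 of largest difference of another list in a comparison, and the 10 most similar in profile; Tdpoz1, Calcoco2, Pramel13, Sp110, Arg1, Tert, Dkc1, Pou5f1, Cdx2, Ifi27, Rif1, Gm5662 and others outside these were named after their values were seen or as examples. The number of arrays limits the precision.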

Additional observations from a re-analysis of the deposited data

Results flagged for a closer look

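Zscan4c, Tcstv1, Tcstv3 and Arg2 were singled out because, on the brightest probe of each, the hairpins lay on opposite sides of the control on both days. On the log2 scale, hairpin 1 minus control for Zscan4c was -0.50 at day 9 and -0.61 at day 12, and hairpin 2 minus control was 1.12 and 0.14. For Tcstv1 the values were -1.78 and -0.69 in hairpin 1 and 0.51 and 0.14 in hairpin 2. For Tcstv3 they were -1.36 and -0.72, then 0.83 and 0.15. Arg2 gave -1.41 and -0.50 in hairpin 1, the first from a spot not well above background, and 0.66 and 0.24 in hairpin 2. Zfp352 was not among them, since hairpin 2 at day 12 was -0.10 on its brighter probe. Not all dimmer probes of the genes singled out had the pattern. At day 12 hairpin 2 minus control was -0.20 on the dimmest Tcstv1 probe and -0.05 on the second Tcstv3 probe. It was 0.11 on the other Tcstv1 probe and 0.16 on the second Zscan4c probe. That the hairpins differ was not tested apart from these arrays, whose values singled the genes out.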

How the results depend on the processing

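The day differences of the 5 genes stayed above 0 in each alternative, as did the hairpin differences. Arg2 has no value where all 6 arrays had to be well above background. With normexp the day difference was 2.91 for Zscan4c, 0.97 for Zfp352 and 0.45 for Arg2; for Tcstv1 and Tcstv3 it was smallest without hairpin 1 at day 9, at 2.31 and 2.11. Of the 5 genes, the number called between the hairpins, a count that restates their choice, was 0 in the other settings, 3 with normexp (119 genes called in all), and 0 to 5 when 1 array was left out. For the 17 other 2-cell genes that number was 0, with 2 under normexp, 1 with the trended robust prior and 0 to 8 with 1 array left out; this count was added after seeing the data. With the vector as a replicate block, 5 of the 17 were called between the days, 0 without it and in the other alternatives; the block also moved the day counts of the interferon list (from 1 to 3) and the fibroblast list (from 0 to 1), and the knockdown counts of the endoderm list (from 0 to 2) and the germ cell list (from 0 to 1). Over all genes it moved the knockdown count from 0 to 20 and the day count from 30 to 328. It changed no other count of list genes called. The cause of these changes was not tested. The pooled knockdown difference changed sign in some alternative for Zscan4c (-0.35 to 0.35), Tcstv1 (up to 0.06), Tcstv3 (up to 0.19) and Arg2 (up to 0.21). The vector cannot be a block between hairpins, and the interaction could not be fitted without a control array. For the knockdown, the block leaves the spread between hairpins out of the SE, so its knockdown counts do not weigh the knockdown against that spread. Dim probes, such as that of Arg2, bound what can be said of day 9.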
